A study of Mus musculus with 9 samples.

Results

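The genes described here are the enzymes of cholesterol synthesis together with SREBP2, the proteins that hold it back, and genes of sterol transport that it or its counterpart LXR controls. They were chosen by gene symbol from a fixed list, drawn up with earlier results of these data known. All 27 were found among the 25781 genes of the deposited table. RNA was taken from liver of Swiss mice aged 10 to 12 weeks, in 3 groups of 3 libraries. One group had received sodium selenite (Na2SeO3, a selenium salt) at 50 µg/kg together with β-CYP at 40 mg/kg, another β-CYP alone at 40 mg/kg, and the last is labelled control; the labels do not spell out what β-CYP stands for. The series title presents the work as a test of selenium against liver injury. The labels give no sex, route, duration or sampling time, and it is not recorded if each library was made from a mouse of its own. The p-values rest only on how far libraries differed within groups, pooled over the 3 groups and drawn toward that of similarly abundant genes. That spread can be purely technical. There was no group with selenite alone, so a selenite difference is known only in mice that also had β-CYP.

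Cholesterol is built from acetyl-CoA. Its first enzymes make mevalonate and from it the isoprenoid farnesyl diphosphate, the next join and fold this chain into the sterol ring of lanosterol, and the last trim lanosterol to cholesterol. The pathway is run by the transcription factor SREBP2. When membranes of the endoplasmic reticulum hold much cholesterol, INSIG proteins keep SREBP2 and its escort SCAP there; when they hold little, SCAP carries SREBP2 to the Golgi, where proteases release the part that enters the nucleus and switches on genes for synthesis and uptake. LXR, a receptor for oxidised sterols, drives efflux genes such as Abca1. The liver is a main site of both synthesis and disposal of cholesterol.

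Depth was even, with 32084480 to 33056400 reads per library after selenite with β-CYP, 32052250 to 36029560 after β-CYP alone and 28630269 to 35821336 in control. Values below are scaled counts, which are reads divided by the library's scaling factor; they compare 1 gene between libraries but not different genes, since they are not corrected for gene length. The 8 hepatocyte markers (Alb, Ttr, Apoa1 and others) summed to 3173012 to 3228605 scaled counts in the selenite group. The sums were 3681383 to 3821218 in the β-CYP group and 3043746 to 3189801 in control, so the tissue label stood. At an adjusted p under 0.05, 5 of the 8 were higher and 1 lower with β-CYP against control (7.72% and 8.58% of all tested genes). With selenite, 1 was higher and 6 lower against β-CYP (11.6% and 12.3%), and 2 higher and 5 lower against control (14.4% and 14.5%). The 10 markers of pancreatic acinar cells, the enzyme-secreting cells of the neighbouring organ, summed to 30259 to 31187 in the selenite group, 1158 to 1234 in the β-CYP group and 983 to 1157 in control. All 10 were higher with selenite than in either other group, and they made up 0.0996% to 0.101% of reads there; Cela3b, Cpb1, Cpa1, Pnlip and Prss2 were at 0 in both other groups. The 6 neutrophil markers summed to 594 to 756, 484 to 575 and 146 to 153 in the selenite, β-CYP and control groups, the 8 Kupffer cell and macrophage markers to 14828 to 14961, 12727 to 12840 and 11934 to 12410, and the 5 cholangiocyte markers to 1877 to 2007, 6487 to 6840 and 2254 to 2429. Of those 5, only Spp1, which other cells also make, was called higher with β-CYP against control (log2 1.55) and lower with selenite against β-CYP (−1.91). In the same order of groups, 5 adipocyte markers summed to 942 to 1020, 880 to 924 and 300 to 375, with Adipoq, Plin1 and Retn at 0 in β-CYP livers, and 7 lymphocyte markers summed to 87 to 107, 16 to 41 and 39 to 62. Of the 5 adipocyte markers 1 rose with β-CYP against control, Fabp4 (log2 1.59), and 1 fell, Adipoq (−3.59). The sums of the 7 stellate cell and 6 sinusoidal endothelial markers differed less. They were 10716 to 10933, 10426 to 10931 and 9475 to 9910 for stellate cells and 7963 to 8016, 8350 to 8504 and 8620 to 8877 for endothelium. In β-CYP against control, selenite against β-CYP and selenite against control, 3, 2 and 4 stellate markers were higher and 1 lower in each. Of the endothelial markers, 2, 2 and 1 were higher and 1, 3 and 2 lower (shares of all tested genes as given for hepatocyte markers). One control library (replicate 2) held 1805976 reads of AY036118, a ribosomal-repeat transcript, against 43988 and 42232 in the other controls. Whether these differences in tissue content bear on the sterol genes was not tested, and in bulk liver fewer cells of a type cannot be told apart from less RNA per cell.

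SREBP2 binds sterol regulatory elements in promoters, usually beside sites for the general factors NF-Y, which reads CCAAT, and Sp1, which reads GGGCGG. Promoter sequences of 300 bases, from 250 before to 50 after the start, were found for 22 of the 27 genes in RefSeq's annotation of GRCm38.p6. The sequences below are 120-base stretches upstream of the start of 5 enzyme genes that were higher with selenite than with β-CYP alone. They are written 5′ to 3′ on the gene's own strand and show some of the motif sites counted next. GGGCGG is not marked, and further motif sites lie outside these stretches. Capitals mark TCACNCCAC, a form of the sterol element, and CCAAT or its reverse complement ATTGG.
Hmgcs1, chr13:119690201-119690320, plus strand, from 150 to 31 bases upstream: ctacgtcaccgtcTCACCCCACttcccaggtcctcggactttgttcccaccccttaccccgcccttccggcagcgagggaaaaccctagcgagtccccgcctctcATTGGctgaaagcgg
Mvd, chr8:122443423-122443542, minus strand, from 120 to 1 bases upstream: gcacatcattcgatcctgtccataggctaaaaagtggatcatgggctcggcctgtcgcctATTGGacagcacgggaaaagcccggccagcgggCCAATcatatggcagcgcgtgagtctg
Idi1, chr13:8885486-8885605, plus strand, from 120 to 1 bases upstream: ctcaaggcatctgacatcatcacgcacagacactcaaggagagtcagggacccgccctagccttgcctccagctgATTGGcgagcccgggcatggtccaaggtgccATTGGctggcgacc
Lss, chr10:76531485-76531604, plus strand, from 120 to 1 bases upstream: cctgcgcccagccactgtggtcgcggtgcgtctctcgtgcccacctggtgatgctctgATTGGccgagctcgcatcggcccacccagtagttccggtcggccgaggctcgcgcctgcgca
Hsd17b7, chr1:169969266-169969385, minus strand, from 180 to 61 bases upstream: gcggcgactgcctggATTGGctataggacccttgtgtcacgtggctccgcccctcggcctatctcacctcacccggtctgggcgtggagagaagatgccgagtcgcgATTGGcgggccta
On either strand, CCAAT was found in the promoters of 19 of the 22 genes (86.4%), against 42.0% of the 12412 tested genes with a promoter in that table, and it was not in those of Abca1, Acat2 and Scap. GGGCGG was found in 20 of 22 (90.9%, against 62.0%). The letters TCACNCCAC were in 1 of 22 (4.55%, against 1.53%), in Hmgcs1, and the shorter CACNCCAC, which lies inside it, was in 3 of 22 (13.6%, against 7.81%), in Acat2, Hmgcs1 and Insig1. A match describes these letters in this window and does not show that a factor binds there.

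β-CYP alone went with lower levels of more of these genes than higher ones, and selenite given with it went with higher levels of more of them than lower ones relative to β-CYP alone, but at no point did the pathway move as a block. In β-CYP against control livers 10 of the 27 genes fell and 5 rose at an adjusted p under 0.05 in limma, a linear model fitted to all genes, where 8.58% of the 20145 tested genes fell and 7.72% rose. In selenite with β-CYP against β-CYP livers 13 rose and 5 fell, where 11.6% of all tested genes rose and 12.3% fell. In selenite with β-CYP against control livers 9 rose and 7 fell, where 14.4% rose and 14.5% fell. The 3 comparisons share their libraries, so a gene that was low in the β-CYP libraries enters both the first and the second. Because the 27 genes were chosen with earlier results of these data known, their shares beside those of all genes are descriptive only.

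**Figure D1:**
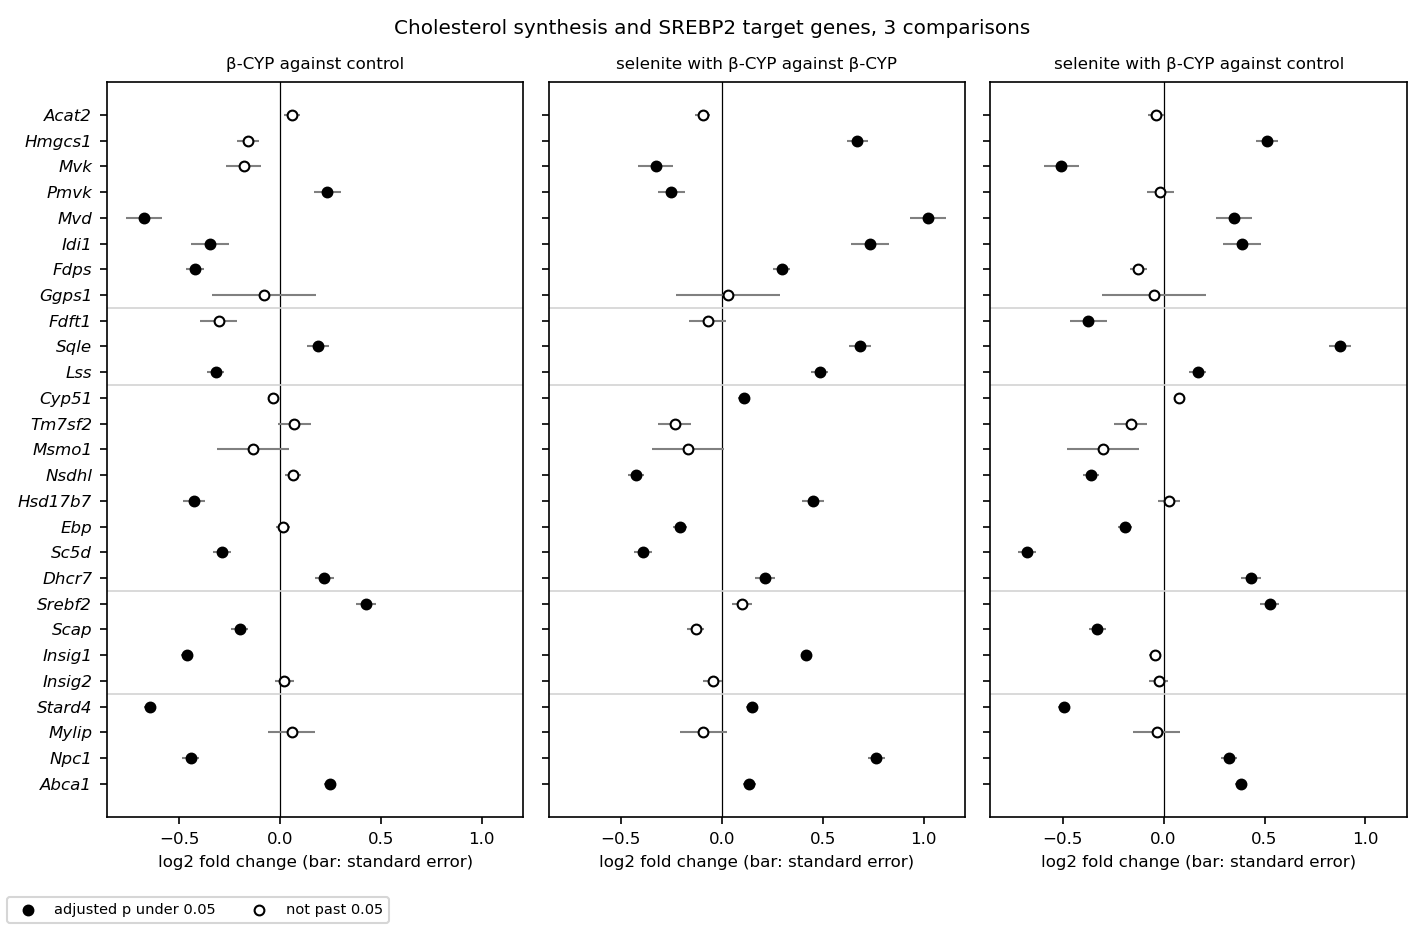
Log2 fold change (x axis) of each of the 27 genes (rows, in pathway order, with grey lines between roles) in each comparison, with bars of 1 standard error; filled points have an adjusted p under 0.05. Filled points lie mostly left of 0 in the first panel (10 of 15) and mostly right of 0 in the second (13 of 18), with points on both sides in all panels.

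The median log2 fold change of the 27 genes was −0.13 for β-CYP against control (all tested genes −0.0013), 0.10 for selenite with β-CYP against β-CYP (all genes 0.017) and −0.033 for selenite with β-CYP against control (all genes 0.027). These are well-expressed genes, which pass a test more easily. Among the 9288 genes at least as abundant as the least abundant of the 27, 13.0% were higher and 14.1% lower for β-CYP against control, 16.7% and 22.2% for selenite with β-CYP against β-CYP, and 20.6% and 24.9% for selenite with β-CYP against control; the matching shares of the 27 were 18.5% and 37.0%, 48.1% and 18.5%, and 33.3% and 25.9%. The direction of small changes with selenite depended on scaling. Setting all libraries to equal totals moved the median of all genes to 0.14 against β-CYP and to 0.16 against control, and the share of higher genes among all called ones to 70.8% (48.6% in the main scaling) and 69.3% (49.9%), so a log2 change of that size or less is close to that shift.

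**Figure D2:**
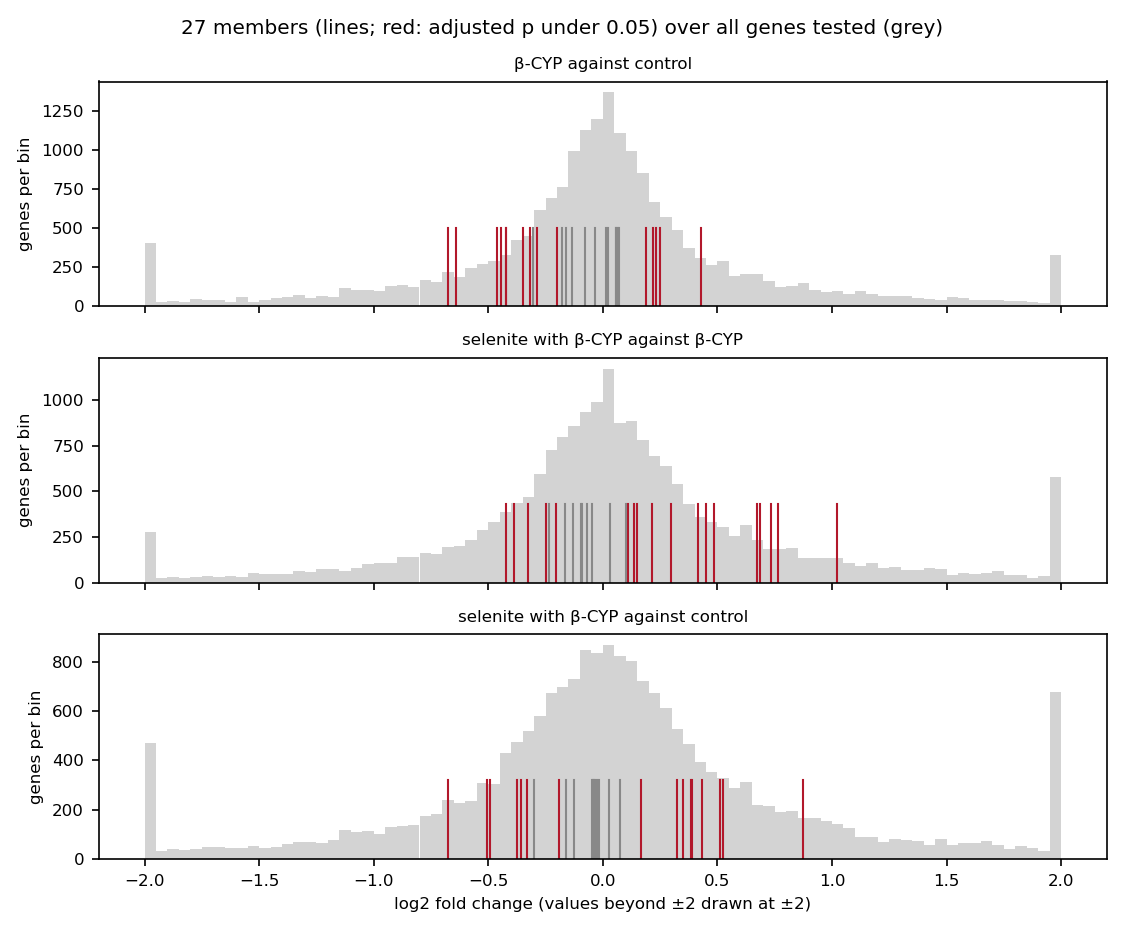
Log2 fold changes (x axis) of all tested genes as grey bars of gene counts (y axis), with a line for each of the 27 genes (red where the adjusted p is under 0.05), 1 panel per comparison; values beyond ±2 are drawn at ±2. The 27 lines lie on both sides of 0 within the bars, with medians of −0.13, 0.10 and −0.033.

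The early enzymes, from acetyl-CoA to farnesyl and geranylgeranyl diphosphate, included Mvd, the gene of the 27 that differed most between selenite and β-CYP livers. Of 8 genes, 4 rose and 2 fell in selenite with β-CYP against β-CYP livers. Against control, 3 rose and 1 fell in selenite with β-CYP livers, and 1 rose and 3 fell in β-CYP livers. In this order, the shares that rose were 50%, 37.5% and 12.5%, beside 11.6%, 14.4% and 7.72% of all tested genes. The shares that fell were 25%, 12.5% and 37.5%, beside 12.3%, 14.5% and 8.58%. Among the 9288 abundant genes, 16.7%, 20.6% and 13.0% rose and 22.2%, 24.9% and 14.1% fell. Mvd, the decarboxylase that turns mevalonate diphosphate into isopentenyl diphosphate, had 529, 576 and 601 scaled counts in the selenite libraries, 303, 268 and 267 in the β-CYP libraries and 466, 406 and 469 in control. No group overlapped another. Mvd was 2.03 times as high with selenite as with β-CYP alone (log2 1.02 ± 0.089 SE, adjusted p = 2.33e-05) and 1.27 times the control level (log2 0.35 ± 0.089, adjusted p = 0.0157), while β-CYP alone left it at 0.626 times control (log2 −0.67 ± 0.089, adjusted p = 0.000598). The difference between selenite and control did not pass without control replicate 2 (adjusted p = 0.0527) or without selenite replicate 3 (0.0587).

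Idi1 makes the isomerase that gives dimethylallyl diphosphate, the starter of isoprenoid chains. It had 5782, 5187 and 5262 scaled counts with selenite, 2718, 3527 and 3573 with β-CYP alone and 4268, 4069.6 and 4063 in control. The 3 groups did not overlap, and the β-CYP libraries were the lowest and the most spread. Idi1 rose 1.66-fold in selenite against β-CYP livers (log2 0.73 ± 0.095 SE, adjusted p = 0.000341) and 1.31-fold against control (adjusted p = 0.0123; 0.0549 without selenite replicate 1). Its fall with β-CYP alone (log2 −0.35 ± 0.095, adjusted p = 0.0332) did not pass without control replicate 1, 2 or 3 (adjusted p = 0.108, 0.0829 and 0.0859) or without selenite replicate 2 or 3 (0.0534 and 0.06). It also did not pass at equal library totals (0.0654), with only the groups compared (0.114) or without the intensity trend (0.107).

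Hmgcs1, which encodes the cytosolic HMG-CoA synthase and carries the sterol element printed above, had 6624, 6431 and 6772 scaled counts in the selenite libraries. The β-CYP libraries had 3863, 4520.1 and 4089, and the control libraries 4764, 4502 and 4631. All 3 selenite libraries stood above all others, while the β-CYP and control libraries overlapped. Hmgcs1 rose 1.59-fold in selenite against β-CYP livers (log2 0.67 ± 0.054 SE, adjusted p = 1.22e-05) and 1.43-fold against control (adjusted p = 6.44e-05). Its difference between β-CYP and control was −0.16 ± 0.054 on the log2 scale (adjusted p = 0.0777), and passed when β-CYP replicate 2 was left out (−0.22, adjusted p = 0.00922).

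Fdps, the farnesyl diphosphate synthase, showed a fall with β-CYP that selenite livers only partly shared. It had 4046, 4036 and 3844 scaled counts with selenite, 3412, 3208 and 3095 with β-CYP alone and 4186, 4399 and 4419.6 in control. The groups did not overlap. Fdps fell to 0.747 times control with β-CYP (log2 −0.42 ± 0.043 SE, adjusted p = 0.000116) and rose 1.23-fold in selenite against β-CYP livers (log2 0.30 ± 0.043, adjusted p = 0.000793). Against control the selenite libraries differed by −0.12 ± 0.043 (adjusted p = 0.0583), which passed without β-CYP replicate 1 (0.0373) or 3 (0.0485), and under 7 of the 21 alternatives in all.

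In selenite against β-CYP livers, the mevalonate kinases were lower, where Hmgcs1, Mvd, Idi1 and Fdps were higher. Mvk, which phosphorylates mevalonate, had 404, 378 and 416 scaled counts with selenite, 493, 478 and 534 with β-CYP alone and 605, 506 and 597 in control. It fell to 0.797 times the β-CYP level (log2 −0.33 ± 0.086 SE, adjusted p = 0.0211) and to 0.704 times control (log2 −0.51 ± 0.086, adjusted p = 0.00165) in selenite livers. The first of these did not pass without β-CYP replicate 3 (adjusted p = 0.0757), without selenite replicate 2 (0.0741) or at equal library totals (0.251). In β-CYP against control livers Mvk was not called (log2 −0.18 ± 0.086, adjusted p = 0.216), with the same sign as Mvd, Idi1 and Fdps. Pmvk, the next kinase, had 725, 707 and 736 with selenite, 927, 797 and 857 with β-CYP alone and 700.1, 722 and 770.3 in control. Its β-CYP libraries were above all others, by 1.18-fold over control (log2 0.23 ± 0.067, adjusted p = 0.0412), and selenite libraries were at 0.841 times β-CYP (adjusted p = 0.0228). Its difference between selenite and control was −0.016 ± 0.067 (adjusted p = 0.897). Both Pmvk calls were fragile: the first did not pass when any 1 library other than control replicate 3 or β-CYP replicate 2 was left out (adjusted p = 0.0572 to 0.131; it failed under 12 of the 21 alternatives in all), and the second did not pass without β-CYP replicate 1 (0.0774) or 3 (0.0581) or selenite replicate 1 (0.0552) or 2 (0.0714), nor at equal library totals (0.335) or without the intensity trend (0.0572).

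Acat2 and Ggps1 were called in no comparison. Acat2 makes the thiolase that joins acetyl-CoA units at the head of the chain, and has a closely similar mouse copy, Acat3, so reads may have been split between them. It averaged 2717 ± 36.7 scaled counts with selenite, 2904 ± 64.5 with β-CYP alone and 2789 ± 119 in control (SD, n = 3 each). Its difference between selenite and β-CYP, −0.10 ± 0.039 SE (adjusted p = 0.117), passed under upper-quartile scaling (0.0393) and with only the groups compared (0.0496). Ggps1, which makes geranylgeranyl diphosphate for protein anchoring and lies on a side branch, averaged 168 ± 46.9, 164 ± 48.5 and 170.0 ± 25.4 in the selenite, β-CYP and control groups. It was the least precise of the 27 genes in β-CYP livers, with a coefficient of variation of 29.6%, where the median was 4.44%.

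Farnesyl diphosphate is committed to sterols by 3 enzymes that make squalene, oxidise it and close the ring. Sqle, squalene epoxidase and a control point of the pathway, had 3909, 3769.8 and 3623 scaled counts in the selenite libraries, 2375, 2191 and 2471 in the β-CYP libraries and 1981, 2169 and 2026 in control. The selenite libraries were far above the rest. Sqle rose 1.83-fold over control (log2 0.87 ± 0.055 SE, adjusted p = 1.81e-06), the largest rise over control among the 27 genes, and 1.61-fold over β-CYP (log2 0.68 ± 0.055, adjusted p = 1.26e-05). It was also slightly higher with β-CYP alone than in control (log2 0.19 ± 0.055, adjusted p = 0.046), where most enzymes that changed were lower; this call did not pass when any 1 library other than control replicate 2 or β-CYP replicate 2 was left out (adjusted p = 0.056 to 0.144), and failed under 14 of the 21 alternatives in all (up to 0.154).

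Lss, the cyclase that folds oxidised squalene into lanosterol, had 1694, 1610.5 and 1663 scaled counts with selenite, 1157, 1178 and 1209.9 with β-CYP alone and 1503, 1430.3 and 1487 in control. Its 3 groups were clearly apart, with β-CYP lowest and selenite highest. Lss fell to 0.802 times control with β-CYP (log2 −0.32 ± 0.042 SE, adjusted p = 0.000603), rose 1.40-fold in selenite against β-CYP livers (log2 0.49 ± 0.042, adjusted p = 2.22e-05) and was 1.12 times control with selenite (log2 0.17 ± 0.042, adjusted p = 0.0141). The last of these did not pass under upper-quartile scaling (adjusted p = 0.0563) or without the intensity trend (0.0605). Fdft1, squalene synthase, stands between Fdps and Sqle in the chain but did not share their rise over β-CYP. It had 1894, 1938 and 1821 with selenite, 2161, 1885 and 1897 with β-CYP alone and 2663, 2612 and 2087 in control. Fdft1 fell to 0.772 times control in selenite livers (log2 −0.37 ± 0.092, adjusted p = 0.0128), a call that did not pass without control replicate 1 (0.0535) or 2 (0.0546), without selenite replicate 3 (0.0537) or at equal library totals (0.0885). Its difference between β-CYP and control was −0.30 ± 0.092 (adjusted p = 0.053), and passed without control replicate 3 (0.00434) or β-CYP replicate 1 (0.0419), and under 7 of the 21 alternatives in all.

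**Figure D3:**
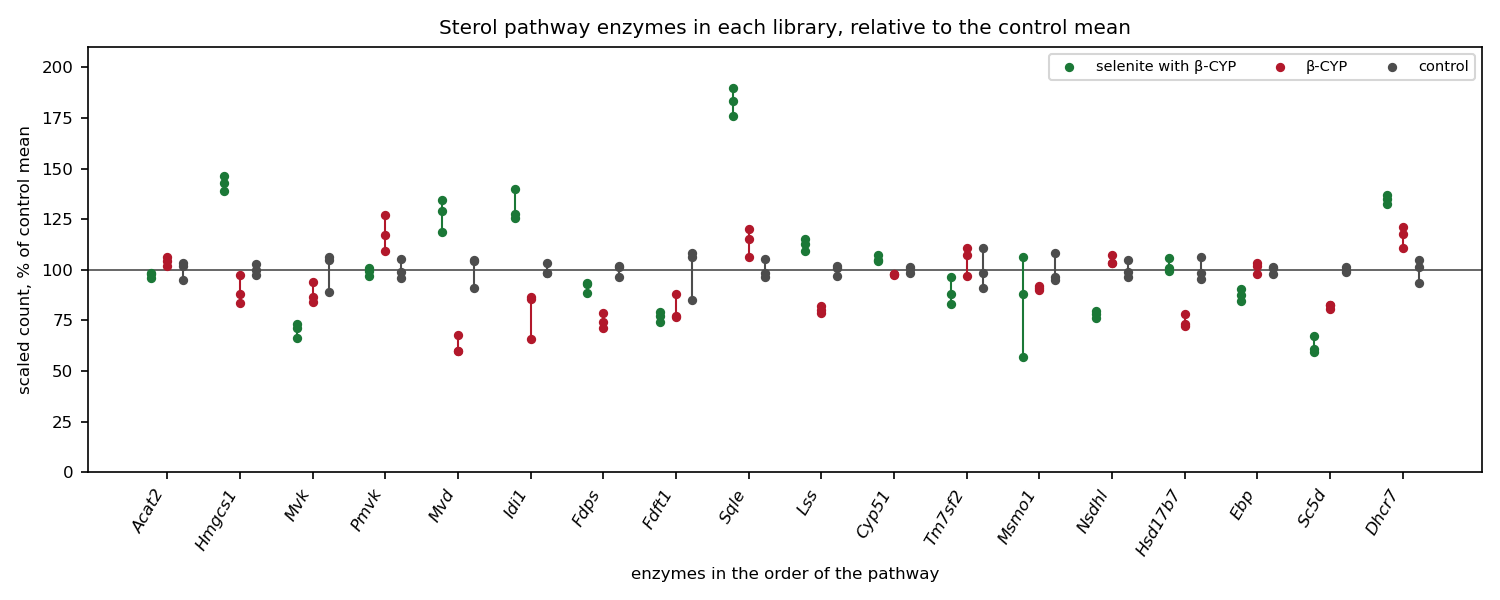
Scaled counts of the cholesterol synthesis enzymes in each library (points, lines from lowest to highest), as percent of the control mean (y axis), in the order in which they act from acetyl-CoA on the left to cholesterol on the right. Selenite points lie above β-CYP points for Hmgcs1, Mvd, Idi1, Fdps, Sqle, Lss, Cyp51, Hsd17b7 and Dhcr7. They lie below β-CYP points for Acat2, Mvk, Pmvk, Tm7sf2, Nsdhl, Ebp and Sc5d, though the differences of Acat2 and Tm7sf2 were not called.

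Lanosterol is turned into cholesterol by removing methyl groups, moving a double bond and adding and reducing others. The 8 genes of this stretch were divided. In selenite with β-CYP against β-CYP livers 3 rose and 3 fell. Against control, 1 rose and 3 fell in selenite with β-CYP livers, and 1 rose and 2 fell in β-CYP livers. In this order, rises were 37.5%, 12.5% and 12.5% of the 8, beside 11.6%, 14.4% and 7.72% of all tested genes. Falls were 37.5%, 37.5% and 25%, beside 12.3%, 14.5% and 8.58%. Of the 9288 abundant genes, 16.7%, 20.6% and 13.0% rose and 22.2%, 24.9% and 14.1% fell. Hsd17b7, the ketone reductase of the demethylation complex, had 1647, 1548 and 1572 scaled counts with selenite, 1124, 1140.5 and 1221 with β-CYP alone and 1490.3, 1533 and 1657 in control. Its β-CYP libraries were below all others, and the selenite and control libraries overlapped. Hsd17b7 fell to 0.745 times control with β-CYP (log2 −0.42 ± 0.055 SE, adjusted p = 0.000517) and rose 1.37-fold in selenite against β-CYP livers (log2 0.45 ± 0.055, adjusted p = 0.000233), with a difference between selenite and control of 0.03 ± 0.055 (adjusted p = 0.764).

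Nsdhl, the decarboxylating dehydrogenase of the same complex, went the opposite way. It had 2351, 2319 and 2255 scaled counts in the selenite libraries, against 3056, 3183 and 3057 with β-CYP alone and 2855, 3097 and 2933 in control. The selenite libraries were below all 6 others. Nsdhl fell to 0.745 times the β-CYP level (log2 −0.42 ± 0.040 SE, adjusted p = 3.95e-05) and to 0.780 times control (log2 −0.36 ± 0.040, adjusted p = 0.000101), with no called difference between β-CYP and control (0.07 ± 0.040, adjusted p = 0.336).

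Sc5d, the desaturase that puts in the last ring double bond, was the gene of the 27 that fell most against control in selenite livers. It had 4504, 4985 and 4387 scaled counts with selenite, 5955, 6092 and 6097 with β-CYP alone and 7484, 7378 and 7283 in control. The groups formed 3 separate steps, control highest. Sc5d was at 0.819 times control with β-CYP (log2 −0.29 ± 0.044 SE, adjusted p = 0.00157), at 0.764 times β-CYP with selenite (log2 −0.39 ± 0.044, adjusted p = 0.000148) and at 0.626 times control with selenite (log2 −0.68 ± 0.044, adjusted p = 2.42e-06). Dhcr7, which acts directly after it and reduces 7-dehydrocholesterol, formed the opposite steps. It had 4335, 4468 and 4418 with selenite, 3950.3, 3619.6 and 3844 with β-CYP alone and 3051, 3319 and 3433 in control. Dhcr7 rose 1.35-fold over control with selenite (log2 0.43 ± 0.049, adjusted p = 0.000114), 1.16-fold over β-CYP (adjusted p = 0.011) and 1.16-fold in β-CYP against control livers (adjusted p = 0.0129). Neither of the last pair passed without the intensity trend (0.0684 and 0.0827), nor the β-CYP difference from control without β-CYP replicate 1 (0.0521) or with only the groups compared (0.0589).

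Ebp, the isomerase that moves the ring double bond, had 5393, 5569 and 5222 scaled counts with selenite, 6379, 6029 and 6266 with β-CYP alone and 6231, 6035 and 6216 in control. It fell to 0.867 times β-CYP and 0.875 times control in selenite livers (log2 −0.21 and −0.19, each ± 0.034 SE, adjusted p = 0.00164 and 0.00207), but neither passed at equal library totals (adjusted p = 0.417 and 0.557) or after quantile normalization (0.55 and 0.589). Cyp51, the lanosterol demethylase, had 5137, 5010.4 and 4989 with selenite, 4682, 4686 and 4669 with β-CYP alone and 4795, 4847 and 4713 in control. Its rise over β-CYP was small (1.08-fold, log2 0.11 ± 0.026, adjusted p = 0.0144) and did not pass under upper-quartile scaling (0.0568) or without the intensity trend (0.17). Its difference between selenite and control was 0.08 ± 0.026 (adjusted p = 0.0571), which passed at equal library totals (0.0088) and under 5 of the 21 alternatives in all.

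Msmo1 and Tm7sf2 were called in no comparison. Msmo1, the methyl sterol oxidase, had 4695, 2522 and 3881 scaled counts with selenite, 4018, 3978 and 4064 with β-CYP alone and 4199.7, 4789 and 4264 in control. Selenite replicate 2 was the lowest of the 9 libraries, and the selenite group had the widest spread of the 27 genes (coefficient of variation 29.7%, against a median of 3.22%). Without that library, the log2 difference between selenite and β-CYP was 0.09 (adjusted p = 0.554), against −0.17 with it (0.581). Tm7sf2, a sterol reductase, averaged 2438 ± 184 with selenite, 2864 ± 194 with β-CYP alone and 2732 ± 268 in control (SD, n = 3 each); its log2 difference between selenite and β-CYP was −0.23 ± 0.082 SE (adjusted p = 0.0697), and passed without control replicate 3 (0.0491) and under upper-quartile scaling (0.042).

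The genes that set SREBP2 activity changed in different directions. Srebf2, which encodes SREBP2 and is also one of its targets, had 1471, 1598 and 1642 scaled counts with selenite, 1463, 1449.9 and 1479.8 with β-CYP alone and 1095, 1104 and 1069.8 in control. All 6 treated libraries stood above control. Srebf2 rose 1.44-fold over control with selenite (log2 0.53 ± 0.049 SE, adjusted p = 2.74e-05) and 1.34-fold with β-CYP alone (log2 0.43 ± 0.049, adjusted p = 0.000225). The difference between selenite and β-CYP was 0.10 ± 0.049 (adjusted p = 0.187), and passed without selenite replicate 1 (0.15, adjusted p = 0.0407) and at equal library totals (0.23, adjusted p = 0.0267). So Srebf2 mRNA was higher in β-CYP livers, in which more of the 27 genes fell than rose; its protein and the cleaved form were not measured.

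Insig1, which retains SREBP2 in the endoplasmic reticulum and is itself an SREBP target, was low in β-CYP livers alone and varied little within groups. It had 5271, 5293 and 5308 scaled counts with selenite, 4006, 4014 and 3865 with β-CYP alone and 5418, 5491 and 5461 in control. The β-CYP libraries were well below all others. Insig1 fell to 0.726 times control with β-CYP (log2 −0.46 ± 0.027 SE, adjusted p = 1.99e-06) and rose 1.34-fold in selenite against β-CYP livers (log2 0.42 ± 0.027, adjusted p = 2.53e-06). The selenite libraries were still all slightly under control, by −0.04 ± 0.027 (adjusted p = 0.26), a difference that passed under upper-quartile scaling (0.0315). It had the other sign after quantile normalization (0.10, adjusted p = 0.0359) and at equal library totals (0.092, adjusted p = 0.207). Insig2, the other retention protein, was called in no comparison, with 5846 ± 248, 6038 ± 369 and 5939 ± 22.3 scaled counts in the selenite, β-CYP and control groups (SD, n = 3 each). Its difference between selenite and control, −0.02 ± 0.047 SE (adjusted p = 0.759), was 0.15 after quantile normalization (adjusted p = 0.0406).

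Scap, the escort of SREBP2, had 3393, 3589 and 3778 scaled counts with selenite, 3811, 3943 and 4013 with β-CYP alone and 4605, 4443 and 4457 in control. Its 3 groups did not overlap, control highest. Scap fell to 0.796 times control with selenite (log2 −0.33 ± 0.043 SE, adjusted p = 0.000283) and to 0.871 times control with β-CYP (log2 −0.20 ± 0.043, adjusted p = 0.0106; 0.0869 at equal library totals and 0.0841 without the intensity trend). Between selenite and β-CYP the difference was −0.13 ± 0.043 (adjusted p = 0.0535), and passed without selenite replicate 3 (−0.17, adjusted p = 0.0195) and under 5 of the 21 alternatives in all.

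Among the genes that move sterol in and out of membranes, Npc1 differed most between selenite and β-CYP livers, and Stard4 most between selenite and control livers. Npc1 encodes the lysosomal membrane protein that passes on cholesterol freed from lipoproteins. Npc1 had 5475, 5610.0 and 5305 scaled counts with selenite, 3235, 3107 and 3298 with β-CYP alone and 4333, 4206 and 4572 in control. The 3 groups were far apart. Npc1 fell to 0.735 times control with β-CYP (log2 −0.44 ± 0.041 SE, adjusted p = 5.08e-05) and rose 1.70-fold in selenite against β-CYP livers (log2 0.77 ± 0.041, adjusted p = 6.7e-07) and above control (log2 0.32 ± 0.041, adjusted p = 0.000232).

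Stard4, a soluble carrier that moves cholesterol between membranes and an SREBP2 target, had 2967, 3012 and 3039.6 scaled counts with selenite, 2688, 2729 and 2719 with β-CYP alone and 4180.5, 4325 and 4201 in control. Both treated groups were far below control. Stard4 fell to 0.640 times control with β-CYP (log2 −0.64 ± 0.030 SE, adjusted p = 3.84e-07) and to 0.710 times control with selenite (log2 −0.49 ± 0.030, adjusted p = 1.26e-06). Selenite libraries were only 1.11 times the β-CYP libraries (log2 0.15 ± 0.030, adjusted p = 0.00506; 0.0757 without the intensity trend). Stard4 thus stayed well under control in the selenite livers, in which Hmgcs1 and Sqle, also SREBP2 targets, were above it.

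Abca1, the LXR-driven pump that loads cholesterol onto apolipoprotein A-I, had 8467, 8643 and 8586 scaled counts with selenite, 7797, 7654 and 7915 with β-CYP alone and 6439, 6833 and 6417 in control. The groups formed 3 separate steps, selenite highest. Abca1 rose 1.31-fold over control with selenite (log2 0.38 ± 0.030 SE, adjusted p = 9.2e-06), 1.19-fold over control with β-CYP (log2 0.25 ± 0.030, adjusted p = 0.000379) and 1.10-fold in selenite against β-CYP livers (log2 0.14 ± 0.030, adjusted p = 0.00907; 0.122 without the intensity trend). Mylip, an LXR-induced ubiquitin ligase that limits lipoprotein uptake, passed in no comparison, with 388 ± 48.6, 414 ± 56.5 and 395 ± 10.3 scaled counts in the selenite, β-CYP and control groups (SD, n = 3 each).

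**Figure D4:**
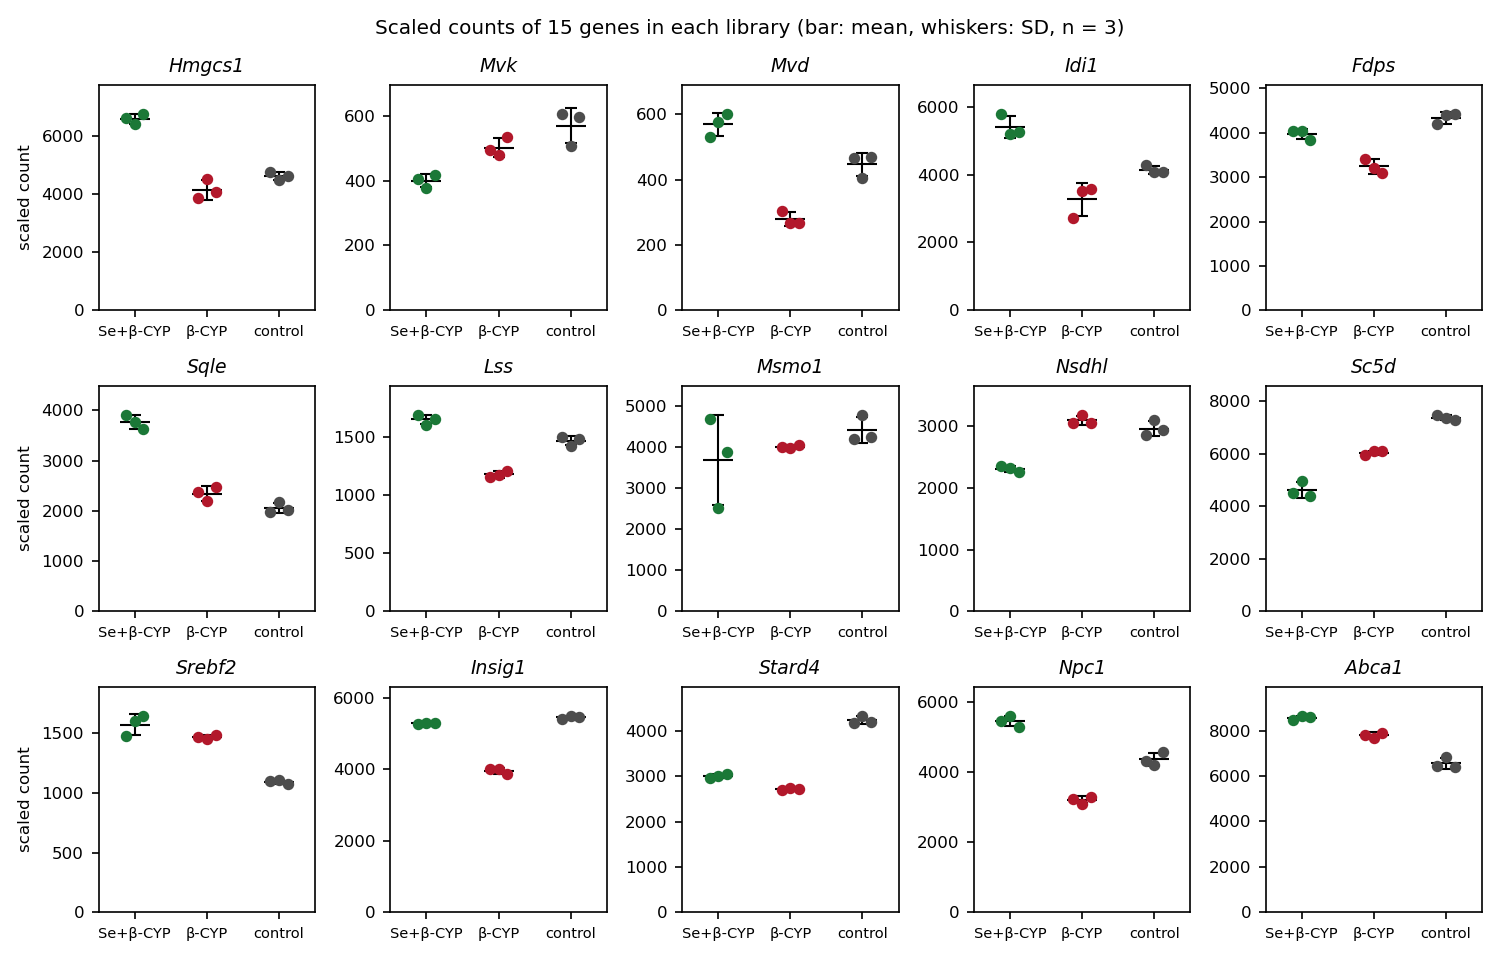
Scaled counts (y axis) of selected genes in each library (points) with group means and SD, for selenite with β-CYP, β-CYP and control. The selenite libraries of Hmgcs1, Mvd, Sqle and Npc1 lie above all others, while those of Insig1 lie near control and those of Stard4 near β-CYP.

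Lists of neighbouring pathway genes held 56 genes in all, of which 7 rose and 11 fell with β-CYP against control, 7 rose and 11 fell with selenite against β-CYP, and 11 rose and 16 fell with selenite against control. As shares of the 56 these were 12.5% and 19.6%, 12.5% and 19.6%, and 19.6% and 28.6%, beside 7.72% and 8.58%, 11.6% and 12.3%, and 14.4% and 14.5% of all tested genes. Among the 9288 abundant genes the shares were 13.0% and 14.1%, 16.7% and 22.2%, and 20.6% and 24.9%. The LXR and efflux list (9 genes) had 0 rises and 4 falls in selenite against β-CYP livers (44.4% lower, where 12.3% of all tested genes were). Abcg8, which with Abcg5 forms the pump that sends sterols into bile, had 1055, 1098 and 1092 scaled counts with selenite, 2056, 1904 and 2057 with β-CYP alone and 1820.1, 1818 and 1688 in control. Abcg5 had 1151, 1109.6 and 1034, against 1476, 1536 and 1631 with β-CYP alone and 1469, 1540.1 and 1548 in control. The selenite libraries of both pump genes were under all others: Abcg8 was at 0.540 times β-CYP (log2 −0.89 ± 0.049 SE, adjusted p = 9.13e-07) and Abcg5 at 0.710 times (log2 −0.49 ± 0.056, adjusted p = 0.000143), while Abca1, driven by the same receptor, was highest there. Lpcat3, a phospholipid remodelling enzyme, was also lower with selenite (log2 −0.42). With β-CYP against control 3 of the 9 rose (33.3%, beside 7.72% of all tested genes), among them Pltp (0.36) and Lpcat3 (0.27). Abcg1 alone fell (−0.41, adjusted p = 0.0397), or 11.1% of the list beside 8.58%. With selenite against control 1 rose, Pltp (0.36), and 4 fell, or 11.1% and 44.4% beside 14.4% and 14.5%.

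Of 14 genes for sterol esterification, lysosomal release and transport, 2 rose and 5 fell with β-CYP against control, 2 rose and 4 fell with selenite against β-CYP, and 3 rose and 4 fell with selenite against control. The higher shares were 14.3%, 14.3% and 21.4% (7.72%, 11.6% and 14.4% of all tested genes) and the lower ones 35.7%, 28.6% and 28.6% (8.58%, 12.3% and 14.5%). Lipa, the lysosomal lipase that frees cholesterol from its esters ahead of Npc1, had 4404, 4471 and 4610.2 scaled counts with selenite, 5028, 5115 and 5344 with β-CYP alone and 7606, 7515 and 7654 in control. It fell with β-CYP (log2 −0.56 ± 0.032 SE, adjusted p = 1.72e-06) and further with selenite (−0.76 ± 0.032 against control, adjusted p = 8.98e-08), so Lipa and Npc1 moved apart in selenite livers. Nceh1, an ester hydrolase, had 1284, 1338 and 1319 with selenite, 856, 862 and 805 with β-CYP alone and 1136, 1086 and 1226 in control. Osbp, which carries cholesterol to the Golgi, had 3191, 3141 and 3149.8, against 2240.4, 2261 and 2235 with β-CYP alone and 2643, 2631 and 2838 in control. Both were lowest with β-CYP and highest with selenite, like Npc1, with log2 differences between selenite and β-CYP of 0.64 ± 0.056 for Nceh1 (adjusted p = 2.34e-05) and 0.49 ± 0.037 for Osbp (adjusted p = 7.93e-06). Stard5 and Scp2, other sterol carriers, were lower with selenite than in control (log2 −0.34 and −0.39), both were also lower with β-CYP than in control (−0.34 and −0.24), and Stard3 was lower with selenite than with β-CYP (−0.37).

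The 12 further sterol-responsive or sterol-synthesis genes had 1 rise and 4 falls with β-CYP against control, 1 and 3 with selenite against β-CYP, and 2 and 6 with selenite against control. Rises were 8.33%, 8.33% and 16.7% of the list (7.72%, 11.6% and 14.4% of all tested genes), and falls 33.3%, 25.0% and 50.0% (8.58%, 12.3% and 14.5%). Acly, the citrate lyase that supplies cytosolic acetyl-CoA, had 4687, 4730.0 and 4648 scaled counts with selenite, 4415, 4534 and 4649 with β-CYP alone and 7426, 7679 and 7458 in control. It fell with β-CYP (log2 −0.73 ± 0.029 SE, adjusted p = 1.38e-07) and with selenite against control (−0.68 ± 0.029, adjusted p = 1.05e-07), so the supply enzyme was low in both treated groups while Hmgcs1, which uses its product, was high with selenite. Aacs, which activates acetoacetate, rose with β-CYP (0.41) and fell with selenite against β-CYP (−0.23). Rdh11, a retinol dehydrogenase known as an SREBP target, fell with β-CYP (−0.49) and rose with selenite against β-CYP (0.24), and Acss2, the acetyl-CoA synthetase, fell with selenite against β-CYP (−0.36). Lbr, a sterol reductase of the nuclear envelope, and Sp1 rose with selenite against control (0.54 and 0.42).

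On the branch that leaves farnesyl diphosphate for dolichol, ubiquinone and protein prenylation, 3 of 11 genes rose and 0 fell with selenite against β-CYP, 4 rose and 0 fell with selenite against control, and 1 rose and 0 fell with β-CYP against control. The shares that rose were 27.3%, 36.4% and 9.09%, beside 11.6%, 14.4% and 7.72% of all tested genes. Fntb, the β subunit of farnesyltransferase, had 243, 242 and 272 scaled counts with selenite, 140.4, 168 and 147 with β-CYP alone and 154, 168 and 165 in control, a log2 difference of 0.73 ± 0.11 SE between selenite and β-CYP (adjusted p = 0.000786). Dhdds, a subunit of the dolichol-chain synthase, had 1614, 1075 and 1357, against 989, 968 and 976 with β-CYP alone and 887, 824 and 847 in control. The selenite libraries of both were above all others, those of Dhdds widely spread. Nus1, the partner of Dhdds, rose with selenite against β-CYP (0.26), and Rce1, a protease of prenylated proteins, rose with β-CYP (0.49, adjusted p = 0.039) and with selenite (0.66) against control.

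Of 10 proteases and ubiquitin ligases that process SREBPs or degrade sterol-regulated proteins, 1 rose and 0 fell with selenite against β-CYP (10.0% higher, beside 11.6% of all tested genes). Against control, 0 rose and 1 fell with β-CYP (0% and 10%, beside 7.72% and 8.58%). With selenite against control, 1 rose and 2 fell (10% and 20%, beside 14.4% and 14.5%). Rnf145, a ligase of this group, had 763, 797 and 765 scaled counts with selenite, 624, 564 and 599.9 with β-CYP alone and 597, 551 and 565 in control, a rise of 0.38 ± 0.061 SE on the log2 scale over β-CYP (adjusted p = 0.00144). Erlin2, a membrane protein of the same degradation route, fell with selenite against control (−0.19 on the log2 scale, adjusted p = 0.0307). Its difference between β-CYP and control was of like size but not called (−0.18, adjusted p = 0.0555). Between selenite and β-CYP it was −0.0061 (adjusted p = 0.97).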

How the data were processed

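Liver RNA was sequenced in 9 libraries, 3 each of selenite with β-CYP, β-CYP and control, with a TruSeq RNA kit after Trizol extraction, per the labels' protocols. HISAT, Cufflinks and the mm9 build are named in the submitters' processing notes, without versions or roles. Strand use in counting, not given in the sources used here, could let antisense or overlapping genes share reads. The authors deposited 1 table of log2 values per gene and library. From its values, each is log2 of reads divided by a library factor, plus 1, since whole reads were recovered for every value within 0.02 of a whole number.

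Genes with a mean of at least 1 scaled count (20145) were tested with limma 3.58.1 in R 4.3.3, as group means over all 9 libraries with an intensity trend and moderated, two-sided tests; p-values were adjusted by Benjamini-Hochberg over all tested genes, and 0.05 was the threshold. Fold changes are on the log2(scaled count + 1) scale. Precision per gene is given by the spread of libraries; the median coefficient of variation expected from counting alone was 1.61% to 1.79%. No pair of libraries in a group agreed within counting noise (median chi-square per gene 1.49 to 1.71). The numbers of the replicates were checked for pairing. Correlations over many genes together were weak both for libraries with the same number and for others. The fit was tried on simulated counts with the same added spread for every gene, so that trial does not measure error rates in these libraries. Every one of the 27 genes was named; of the other lists, up to 3 passing genes with the largest change per comparison were named, and further values of those genes are given beside them; 1 gene of these lists is not reported here. The members and lists were chosen with earlier results of these data known. RefSeq promoters (GRCm38.p6) were used for sequence only. Alternatives were other scalings (equal totals, trimmed mean of M values, upper quartile, quantile normalization), added constants of 0.1 and 10 before the logarithm, no filter or a mean of at least 10, only the groups compared, no intensity trend, voom weights, a replicate block, and leaving out each library.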

Additional observations from a re-analysis of the deposited data

How the results depend on the processing

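Of the 49 called differences among the 81 (27 genes in 3 comparisons), 32 kept their call under all 21 alternatives and 0 changed sign. Of the 32 differences that were not called, 10 passed under some alternative, and 18 changed sign under at least 1. The count of the 27 genes that rose with β-CYP against control (5) was 3 at equal totals, 3 under upper-quartile scaling, 2 with only the groups compared, 2 without the intensity trend and 3 with the replicate block. The count that fell with selenite against β-CYP (5) was 2 at equal totals and 8 under upper-quartile scaling. Over all genes, equal totals left 1335 lower with selenite against β-CYP (2468 as reported) and 1764 lower with selenite against control (2915).

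Leaving out 1 library at a time gave, over all genes, 1214 to 1511 higher and 1427 to 1716 lower with β-CYP against control, 1834 to 2324 and 2059 to 2425 with selenite against β-CYP, and 2372 to 2840 and 2564 to 2870 with selenite against control. Among the 27 it gave 2 to 5 higher and 9 to 11 lower, 13 to 14 and 3 to 6, and 8 to 9 and 6 to 8 in the same order of comparisons. With the replicate block, 1385 genes were higher and 1571 lower with β-CYP against control, 2171 and 2310 with selenite against β-CYP, and 2734 and 2772 with selenite against control. The block ended the β-CYP against control calls of Idi1, Pmvk and Sqle (adjusted p = 0.0666, 0.0611 and 0.092) and gave one to Fdft1 (0.0293). The deviations of libraries with the same number correlated at −0.0368 to 0.0722, in 0 of 9 pairs over 0.1. For different numbers the range was −0.0742 to 0.0736. Most values for the same number were positive and most of the others negative, but all were weak and the ranges overlapped. Such a correlation cannot exclude a pairing that affects only some genes.

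The sign changes, all of differences not called as reported, were these log2 values. At equal totals, with selenite against β-CYP, Acat2 was 0.031, Fdft1 0.057, Insig2 0.081 and Mylip 0.035. At equal totals, with selenite against control, Acat2 was 0.10, Pmvk 0.12, Fdps 0.011, Ggps1 0.09, Insig1 0.092, Insig2 0.11 and Mylip 0.10. Under upper-quartile scaling Ebp was −0.0060 with β-CYP against control and Hsd17b7 −0.020 with selenite against control. After quantile normalization Ggps1 was −0.072 and Insig2 0.14 with selenite against β-CYP, and Acat2 0.061, Insig1 0.10 and Insig2 0.15 with selenite against control; Insig1 and Insig2 against control passed with the changed sign (adjusted p = 0.0359 and 0.0406). With 1 library left out, Ebp ranged over −0.0033 to 0.037, Ggps1 over −0.31 to 0.043, Insig2 over −0.0094 to 0.073 and Mylip over −0.048 to 0.14 with β-CYP against control. Likewise Ggps1 ranged over −0.12 to 0.29, Mylip over −0.18 to 0.015 and Msmo1 over −0.36 to 0.087 with selenite against β-CYP. With selenite against control Hsd17b7 ranged over −0.0051 to 0.071, Ggps1 over −0.19 to 0.21, Pmvk over −0.046 to 0.023, Insig2 over −0.057 to 0.0029 and Mylip over −0.12 to 0.058. The cause of these changes was not tested. With 3 libraries a group, the differences of Ggps1, Msmo1 and Mylip had the widest errors.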
